A study of Mus musculus with 8 samples.

Results

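The genes described here are 39 transcripts that peak in G2 and mitosis, fixed as a list of named genes among the 23420 gene symbols counted in each library. All 39 were expressed well above background in mouse embryonic stem cells (mESCs), with at least 1292 reads in every library, and all entered the tests. Feeder-free lines maintained with LIF, derived from day 5 preimplantation blastocysts on a mixed 129 x C57BL/6 strain background, were either wild type for the nuclear transport receptor Importin-13 (IPO13+/+) or carried its gene knockout (IPO13-/-). Cells of each genotype were left untreated or exposed to 125 µM H2O2 for 1 h and collected after 2 h of recovery, which gave 4 groups of 2 RNA-seq libraries. The labels name no more than 1 line of each genotype, so differences between lines and between genotypes cannot be told apart. They also do not say whether the 2 libraries of a group came from separate cultures, so the p-values below measure the spread between these libraries, which may be technical. The question put to the data was how oxidative stress and the loss of IPO13 change the messages that cells use to enter and complete mitosis.

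Mitotic genes are transcribed as cells pass from S phase into G2, and their products drive entry into mitosis, build the spindle, hold and then release sister chromatids and divide the cell. Their promoters are held silent in resting and early G1 cells by the DREAM complex and switched on by the MYBL2-MuvB complex and FOXM1, largely through a short element called the cell cycle genes homology region (CHR), while the trimeric factor NF-Y binds the CCAAT box found in many of them. The stress-induced CDK inhibitor p21, encoded by Cdkn1a, favours assembly of the repressive complex. Pluripotent stem cells cycle fast. In RNA from whole unsynchronised cultures, fewer cells in G2 and mitosis cannot be told apart from less mitotic RNA per cell.

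Promoter sequence is shown for 8 members because many of the 39 genes share these elements while their responses do not all go the same way. Of the 39, 32 have an entry in the RefSeq promoter set (GRCm38.p6), which spans 250 bases before to 50 after the gene start. Both strands were searched without regard to overlap between motifs, and a gene was counted if any of its windows matched. The CHR letters (TTTGAA or TTCGAA) occurred in 26 of those 32 genes (81.2%), against 21.7% of 27025 genes with a window, and the CCAAT letters in 26 of 32 (81.2%), against 41.1%. Both were found in 22 of 32 (68.8%), against 8.61% of all genes. The stretches below are the 120 bases directly upstream of the gene start, 5′ to 3′ on the strand of the gene, with CHR and CCAAT letters of either strand in capitals. Ccnb1, Plk1, Cdc20, Cdk1 and Aurka are the central members, Kif23 fell most in IPO13+/+ cells, and Ckap2 and Fam83d rose after H2O2.

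Ccnb1: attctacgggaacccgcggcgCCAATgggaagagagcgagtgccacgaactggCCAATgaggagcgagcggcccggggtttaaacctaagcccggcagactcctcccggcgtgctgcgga
Plk1: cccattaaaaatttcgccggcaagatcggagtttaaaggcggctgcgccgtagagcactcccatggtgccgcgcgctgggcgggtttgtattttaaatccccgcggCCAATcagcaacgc
Cdc20: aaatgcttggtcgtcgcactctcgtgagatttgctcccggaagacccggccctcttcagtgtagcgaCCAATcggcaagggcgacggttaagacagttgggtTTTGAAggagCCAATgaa
Cdk1: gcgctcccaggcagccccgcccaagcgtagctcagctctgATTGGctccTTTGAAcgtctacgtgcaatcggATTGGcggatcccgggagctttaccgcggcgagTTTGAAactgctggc
Aurka: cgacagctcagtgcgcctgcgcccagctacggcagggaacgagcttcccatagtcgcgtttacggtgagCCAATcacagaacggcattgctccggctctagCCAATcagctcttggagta
Kif23: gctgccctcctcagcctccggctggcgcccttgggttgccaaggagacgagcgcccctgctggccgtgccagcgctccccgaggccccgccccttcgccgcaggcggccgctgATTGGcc
Ckap2: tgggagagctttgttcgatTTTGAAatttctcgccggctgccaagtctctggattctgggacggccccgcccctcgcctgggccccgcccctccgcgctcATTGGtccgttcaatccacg
Fam83d: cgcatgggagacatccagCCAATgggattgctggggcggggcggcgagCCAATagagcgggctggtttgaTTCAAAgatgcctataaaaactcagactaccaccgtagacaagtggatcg

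Ccnb1 is at chr13:100786487-100786606 (minus strand), Plk1 at chr7:122159315-122159434 (plus strand), Cdc20 at chr4:118437344-118437463 (minus strand) and Cdk1 at chr10:69352913-69353032 (minus strand). Aurka is at chr2:172370571-172370690 (minus strand), Kif23 at chr9:61946800-61946919 (minus strand), Ckap2 at chr8:22185820-22185939 (minus strand) and Fam83d at chr2:158767979-158768098 (plus strand). In Plk1, Aurka and Kif23 the CHR letters lie just past the start, at bases 31, 33 and 3 downstream, and so outside the printed stretch, and in Ccnb1 the searched window holds 2 CCAAT boxes and no CHR letters. Both Ckap2 and Fam83d, which rose, carry both motifs, and members that fell vary, Birc5 and Nuf2 having neither in the window and Nek2 the CCAAT letters only. These matches describe sequence only.

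Depth ran from 60397877 to 73789079 gene-assigned reads per library. Levels are given as CPM, reads scaled to a common library size with TMM factors. Ipo13 itself was read at 70.3 and 68.3 CPM in untreated IPO13+/+ libraries and at 72.4 and 69.3 CPM in treated ones. In IPO13-/- cells it was at 25.9 and 25.05 CPM without and 24.9 and 25.9 CPM with H2O2. Its transcript fell by 1.44 on the log2 scale in untreated IPO13-/- cells (SE 0.049, edgeR quasi-likelihood test, FDR 9.53e-19) and was not lost. The summed level of 10 embryonic stem cell markers lay between 6135 and 7416 CPM, while 8 fibroblast or feeder markers summed to 6.44 to 9.44 CPM. The stem cell sum was 7132 to 7416 CPM in IPO13+/+ and 6135 to 6393 CPM in IPO13-/- libraries, and that of 7 trophectoderm markers was 60.9 to 72.1 CPM and 37.2 to 41.2 CPM. The sum of 7 epiblast and mesoderm markers was 38.7 to 43.5 CPM before and 31.2 to 31.8 CPM after H2O2 in IPO13+/+ cells, and 35.1 to 38.0 CPM before and 25.3 to 27.6 CPM after in IPO13-/- cells. Single markers did not all follow these sums. Of the 10 stem cell markers, 5 were lower and 2 higher in untreated IPO13-/- cells (19.4% and 18.7% of all genes tested). Eomes belongs to both the trophectoderm and the epiblast list. The part of the shifts of these sums in the results below was not tested. In untreated IPO13+/+ cells the 2 libraries differed with transcript length, replicate 1 minus replicate 2 running from a median of -0.050 log2 units in the shortest of 5 equal classes of transcripts to 0.080 in the longest. The corresponding medians went from -0.052 to 0.048 in treated and from -0.018 to 0.037 in untreated IPO13-/- libraries, and from 0.0020 to -0.0053 in treated IPO13+/+ libraries. Exons of 9 members, among them Plk1, Cdc20, Cdc25b and Ube2c, overlap those of a gene on the opposite strand in GENCODE M21, and Ccnb1 and Ccnb2 have annotated pseudogenes. How the counting treated strand and multi-mapped reads is not given in the sources used here, so reads of such pairs may not have been told apart.

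The mitotic messages made up 0.741% to 0.768% of reads in untreated IPO13+/+ cells, 0.682% to 0.685% after H2O2, 0.823% to 0.831% in untreated IPO13-/- cells and 0.732% to 0.746% in treated IPO13-/- cells. Per kilobase of exon, the most abundant member in untreated IPO13+/+ cells was Cdc20 at 179.4 CPM per kilobase, followed by Arl6ip1 at 145.0 and Ccnb1 at 117.0, and the least abundant were Cdc25c at 4.33 and Cdc25b at 7.17.

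**Figure D1:**
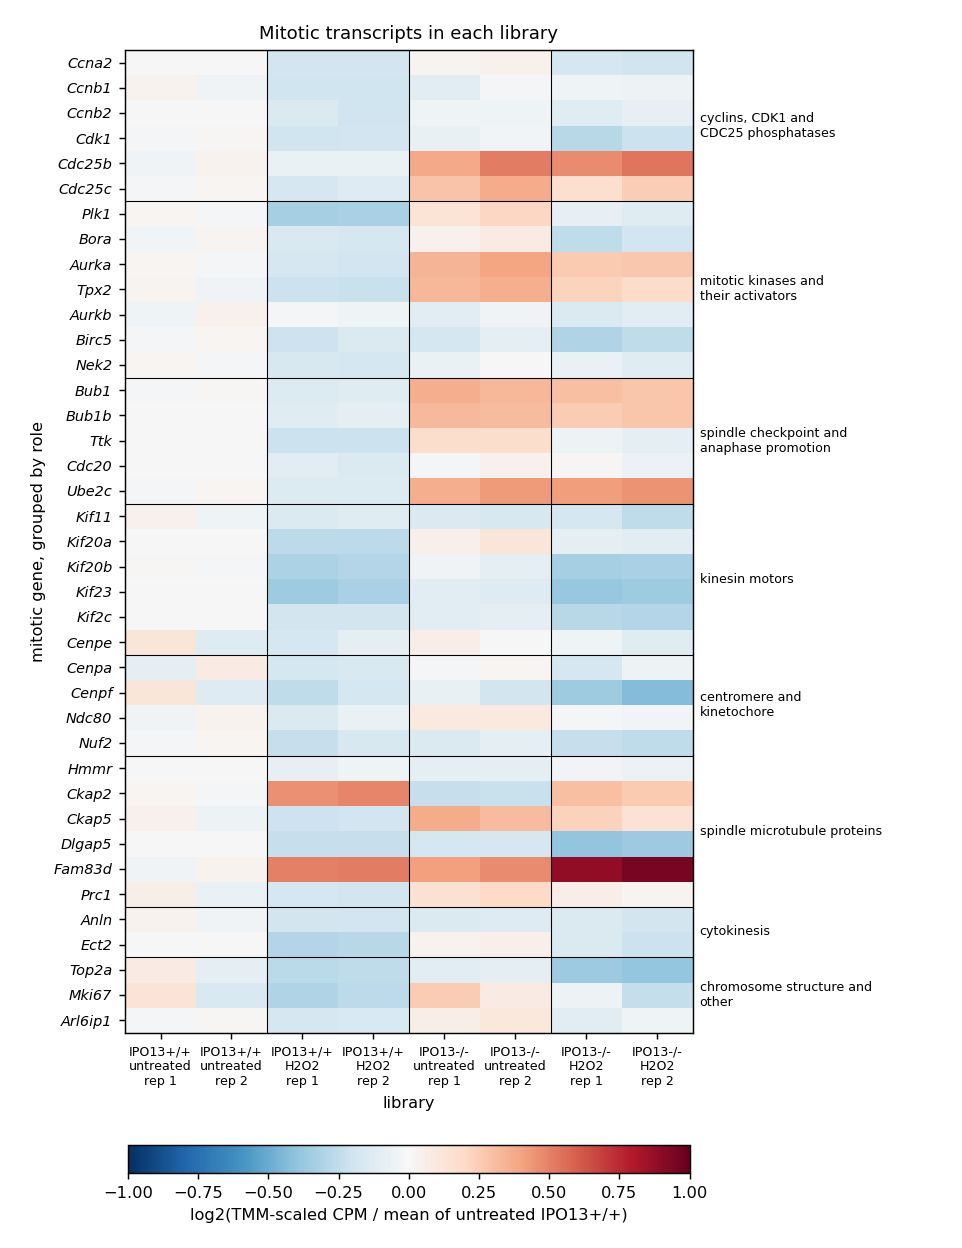
Heat map of the 39 mitotic genes (vertical axis, grouped by role) in the 8 libraries (horizontal axis); colour is the log2 ratio of TMM-scaled CPM to the mean of the 2 untreated IPO13+/+ libraries. Most genes are blue in both H2O2-treated IPO13+/+ libraries, Ckap2 and Fam83d are red there, and a set including Aurka, Tpx2, Bub1, Bub1b, Ube2c and Cdc25b is red in all 4 IPO13-/- libraries.

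In IPO13+/+ cells the mitotic program fell modestly and broadly after H2O2. Of the 39 members, 31 were lower at FDR below 0.05 (13.8% of the 19424 genes tested were called lower, and 17.6% of the 15191 that pass edgeR's expression filter), and 2 were higher (background 11.5%). The median log2 fold change was -0.18, a change of -11.8% on the linear scale, with a range of -0.34 to 0.51, against a median of -0.0011 over all genes tested and -0.027 over those passing the filter. None changed 2-fold, the size limit the study used (2.9% of genes tested did). With only the 4 libraries compared, 20 were lower, as were 6.55% of all genes in that fit. The median of the members ran from -0.183 to -0.156 with 1 library left out.

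The cyclin B and CDK1 module followed this pattern. Ccnb1, the cyclin that activates CDK1 at mitotic entry, was at 506 and 481 CPM in untreated IPO13+/+ cells and at 429 and 430.2 CPM after H2O2, with both treated libraries below both untreated ones. Its log2 fold change was -0.20 (SE 0.040, FDR 0.000381). Cdk1, the kinase itself, went from 226 and 230.0 to 198 and 199.6 CPM without overlap, a log2 fold change of -0.20 (SE 0.040, FDR 0.000425). Ccnb2, the second B-type cyclin, and Ccna2, cyclin A of S phase and G2, were also lower, with log2 fold changes of -0.17 and -0.19. The phosphatases that remove the inhibitory phosphates from CDK1 did not pass, Cdc25b at -0.065 (FDR 0.455) and Cdc25c at -0.15 (FDR 0.055).

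Among the 7 mitotic kinases and their activators, 6 were lower. Plk1, the polo-like kinase needed for centrosome maturation and mitotic entry, was read at 189.5 and 185 CPM before and 149 and 149 CPM after H2O2. The groups were far apart relative to their spread, and the log2 fold change was -0.33 (SE 0.040, FDR 4e-07). Aurka, the centrosomal Aurora kinase, moved from 161 and 157 to 142 and 139 CPM, a log2 fold change of -0.18 (SE 0.040, FDR 0.00108), again without overlap. Its partners moved with it. Tpx2, which activates Aurora A on the spindle, had a log2 fold change of -0.22, and Bora, which helps Aurora A switch on PLK1, one of -0.16. Birc5 (survivin), of the chromosomal passenger complex, and Nek2, a kinase of centrosome separation, fell by similar amounts, -0.18 and -0.17, whereas Aurkb, the kinase of the passenger complex, was at -0.032 (FDR 0.682).

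All 5 checkpoint and anaphase genes were lower in IPO13+/+ cells after H2O2. Ttk, the kinase that starts checkpoint signalling at kinetochores, had the largest log2 fold change of these, -0.21. Bub1, Bub1b, both checkpoint proteins, and Ube2c, the ubiquitin-conjugating enzyme of the anaphase-promoting complex, lay between -0.14 and -0.11. Cdc20, the activator of that complex, was at 334 and 337 CPM before and 312 and 303 CPM after H2O2. The groups did not overlap, but the log2 fold change of -0.12 (SE 0.040, FDR 0.0207) was near the threshold, and the FDR rose to between 0.0672 and 0.231 on leaving out either treated IPO13+/+ library or any of the 4 IPO13-/- libraries. It was also above 0.05 by DESeq2 (0.0577), with library totals (0.139), with filterByExpr (0.0902) and with only the 4 libraries compared (0.133).

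Of the 6 kinesin motors, 5 were lower and they included 2 of the 3 largest falls. Kif23, a component of the centralspindlin complex of the cleavage furrow, was at 176 and 176 CPM in untreated and 138 and 141 CPM in treated IPO13+/+ cells, which is a log2 fold change of -0.34 (SE 0.039, FDR 1.54e-07). Kif20b, a motor of late cytokinesis, was at 212 and 209 CPM before and 169 and 172 CPM after, a log2 fold change of -0.31 (SE 0.039, FDR 8.74e-07). In both genes the 2 libraries of each group nearly coincided. Kif20a, which brings the passenger complex to the central spindle, Kif2c, a microtubule depolymerase of centromeres, and Kif11, the motor that separates spindle poles, had log2 fold changes of -0.26, -0.19 and -0.13, and the kinetochore motor Cenpe did not pass at -0.13 (FDR 0.0921).

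At the centromere and kinetochore, Cenpa, the histone H3 variant of centromeres, the large kinetochore protein Cenpf and the Ndc80 complex subunit Nuf2 were lower, at -0.17, -0.21 and -0.20, while Ndc80, whose protein pairs with that of Nuf2 to bind microtubules, did not pass at -0.10 (FDR 0.112). Both cytokinesis genes were lower, Ect2, the exchange factor that activates RhoA at the furrow, at -0.28 and the scaffold Anln at -0.19. Top2a, the topoisomerase that untangles sister chromatids, Mki67, the coat protein of mitotic chromosomes, and Arl6ip1, a membrane protein of the endoplasmic reticulum, made up the last group and were all lower, at -0.26, -0.28 and -0.16. Top2a and Mki67 belong to the long transcripts, with 9013 and 10061 bases of exon, and Mki67 was read at 409.6 and 334 CPM in the 2 untreated libraries, a wider gap than that between the lower of them and the treated libraries, at 302 and 309.5 CPM. The 9 members in the longest of the 5 length classes had a median log2 fold change of -0.20, and the other 30 one of -0.17, so both were below 0.

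The spindle microtubule proteins split. Ckap5, a microtubule polymerase, Dlgap5, which stabilises kinetochore fibres, and Prc1, which bundles the central spindle, were lower at -0.20, -0.23 and -0.18, and Hmmr, a spindle assembly factor, was at -0.064 (FDR 0.273). Ckap2, a microtubule-stabilising spindle protein, went the other way, from 116 and 112 CPM to 157 and 160.4 CPM. That is a log2 fold change of 0.48 (SE 0.041, FDR 5.12e-10). Fam83d, which recruits casein kinase 1 to the spindle, rose from 32.00 and 33.5 to 46.4 and 46.6 CPM, a log2 fold change of 0.51 (SE 0.048, FDR 3.98e-09). Both treated libraries lay above both untreated ones in either gene, and these 2 rises were larger in size than any of the 31 falls.

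**Figure D2:**
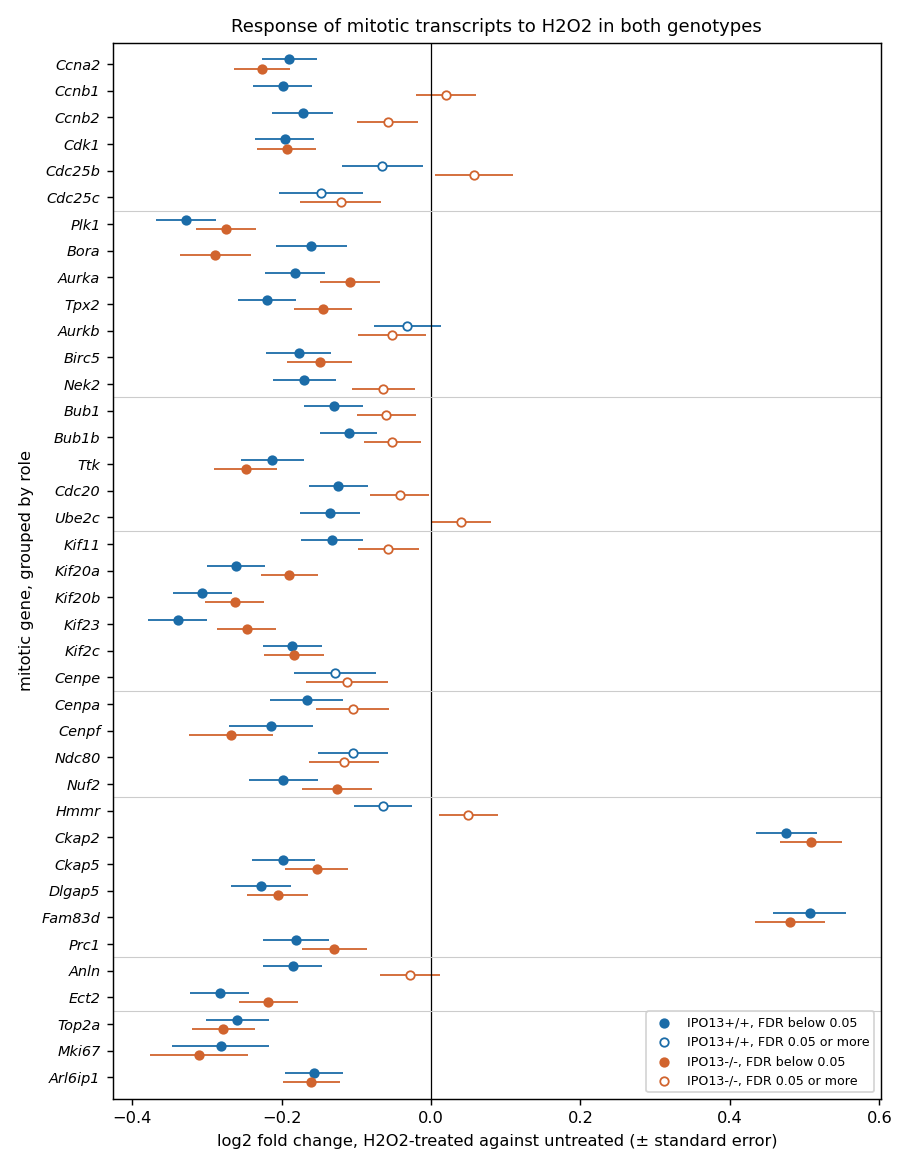
Log2 fold change of H2O2-treated against untreated cells (horizontal axis, with standard error) for each mitotic gene (vertical axis, grouped by role) in IPO13+/+ (blue) and IPO13-/- cells (orange), filled where the FDR is below 0.05. Points crowd left of 0 in both genotypes, Ckap2 and Fam83d stand alone near 0.5, and the 2 points of Ccnb1 are the farthest apart.

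In IPO13-/- cells the same treatment lowered 21 of the 39 members (background 14.4%, and 18.4% among genes passing the filter) and raised 2 (background 14.9%), again with none at 2-fold (background 2.89%). The median log2 fold change was -0.13, a change of -8.35%, with a range of -0.31 to 0.51, against 0 over all genes tested, and 33 of 39 values were below 0. The largest falls were in Mki67, Bora and Top2a. Mki67 was at 442 and 393 CPM in untreated and 358 and 315 CPM in treated IPO13-/- cells, and its log2 fold change of -0.31 (SE 0.065, FDR 0.00053) lost its call without the first untreated (FDR 0.165) or the second treated (FDR 0.0591) IPO13-/- library, and by DESeq2 (FDR 0.0654). Bora went from 43.2 and 44.3 to 35.1 and 36.6 CPM, a log2 fold change of -0.29 (SE 0.048, FDR 2.95e-05). Top2a went from 732 and 738 to 610.1 and 602 CPM, a log2 fold change of -0.28 (SE 0.042, FDR 8.82e-06). In all 3 genes the treated libraries lay below the untreated ones.

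The central members answered unevenly in IPO13-/- cells. Plk1 was at 206 and 216 CPM before and 177 and 172 CPM after H2O2, a log2 fold change of -0.27 (SE 0.040, FDR 5.14e-06) with no overlap. Cdk1 moved from 216 and 223 to 188 and 196 CPM, with a log2 fold change of -0.19 (SE 0.040, FDR 0.000413). Aurka moved from 202 and 209.6 to 190.3 and 191 CPM, and its log2 fold change of -0.11 (SE 0.040, FDR 0.0406) was just inside the threshold. It was not called with filterByExpr (-0.097, FDR 0.0559). Its call was also lost when any 1 of the treated IPO13+/+ or the IPO13-/- libraries was left out (-0.13 to -0.0615). Ccnb1 did not pass. Its 2 untreated IPO13-/- libraries were at 456 and 487 CPM and the treated ones at 479 and 477 CPM, overlapping, with a log2 fold change of 0.02 (SE 0.040, FDR 0.775). Cdc20 overlapped too, at 333 and 346 CPM before and 338 and 322 CPM after (-0.042, FDR 0.508).

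Seen by role, 2 of 6 cyclin, CDK1 and CDC25 genes were lower in IPO13-/- cells (Cdk1 and Ccna2), 5 of 7 kinases and activators, 4 of 6 kinesins, 2 of 4 centromere and kinetochore genes, 1 of 2 cytokinesis genes (Ect2) and all 3 of the last group. Of the 5 checkpoint and anaphase genes Ttk alone was called, at -0.25, with the others between -0.060 and 0.040. Ckap2 rose from 97.4 and 97.7 to 141 and 137 CPM, a log2 fold change of 0.51 (SE 0.041, FDR 1.35e-10). Fam83d rose from 43.5 and 45.3 to 60.5 and 63.3 CPM, a log2 fold change of 0.48 (SE 0.047, FDR 4.83e-09). Neither rise overlapped with the untreated libraries, and both were close in size to those in IPO13+/+ cells.

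**Figure D3:**
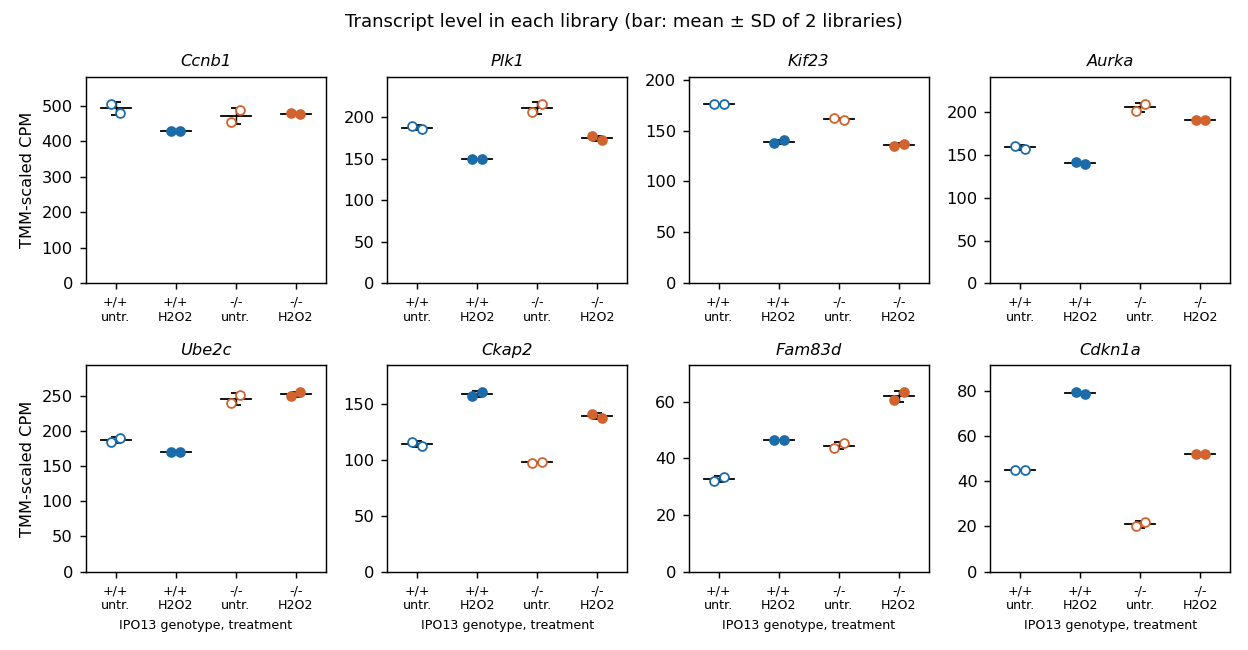
TMM-scaled CPM (vertical axes, from 0) of 7 mitotic genes and Cdkn1a in each library, by IPO13 genotype and treatment (horizontal axis; open points untreated, filled points H2O2-treated; black bars the mean ± SD of 2 libraries). Plk1 and Kif23 drop after H2O2 in both genotypes, Ckap2, Fam83d and Cdkn1a climb, Aurka and Ube2c lie higher in IPO13-/- cells with or without H2O2, and for Ccnb1 the treated libraries lie below the untreated ones in IPO13+/+ cells and between them in IPO13-/- cells.

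That fewer members passed the threshold in IPO13-/- cells does not show a different response, and the difference was tested as the interaction of genotype and treatment. It called 1 of 39 members higher (background 2.01%) and 0 lower (background 0.705%) by the edgeR quasi-likelihood test, 3 members had an unadjusted p below 0.05, and limma-voom and DESeq2 called 0. The median interaction over the 39 was 0.051, against 0.017 over all genes tested, and it was -0.021 when library totals replaced the TMM factors. The gene called was Ccnb1, with an interaction of 0.22 log2 units (SE 0.056, FDR 0.0305). Its FDR was 0.0749 by limma-voom and 0.0678 by DESeq2, and from 0.00204 to 0.453 as single libraries were left out, rising above 0.05 on leaving out either treated IPO13+/+ or any IPO13-/- library. The interactions of Plk1 (0.054, FDR 0.745), Aurka (0.073, FDR 0.617), Cdc20 (0.083, FDR 0.545) and Cdk1 (0.0028, FDR 1) did not pass.

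Other mitotic genes had calls in both directions, and in each genotype more of them were called lower than higher. Among all genes passing the filter, treatment of IPO13+/+ cells left 17.6% lower and 14.4% higher. For IPO13-/- cells these background shares were 18.4% and 18.9%. Of 41 other mitotic genes, 19 were lower and 7 higher in IPO13+/+ cells (median -0.11), and 13 lower and 8 higher in IPO13-/- cells (median -0.060). The strongest were rises. Kif18b, a plus-end kinesin that limits astral microtubules, had log2 fold changes of 0.64 in IPO13+/+ and 0.66 in IPO13-/- cells. Psrc1, a microtubule-binding spindle protein, had 0.50 and 0.56. Gtse1, a microtubule-associated protein of G2 that also restrains p53, had 0.48 and 0.62, and Kifc1, a minus-end motor that clusters spindle poles, had 0.45 and 0.52. These 4 had the largest changes of the list in both genotypes, while other kinesins and spindle genes of it were lower, such as Kif18a (-0.31 and -0.13), Racgap1 (-0.31 and -0.25) and Kif14 (-0.30 and -0.27), examples chosen after their values were seen.

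The regulators of mitotic transcription and entry included the largest rises of the cell cycle lists. Btg2, an antiproliferative gene induced by p53, was at 38.8 and 38.1 CPM in untreated and 109 and 113 CPM in treated IPO13+/+ cells, and in IPO13-/- cells at 26.99 and 28.4 CPM before and 96.8 and 93.1 CPM after. Cdkn1a was at 45.2 and 45.01 CPM before and 79.6 and 78.6 CPM after H2O2 in IPO13+/+ cells, and at 19.99 and 22.2 CPM before and 52.1 and 52.00 CPM after in IPO13-/- cells, where it started lower. The log2 fold changes were 1.53 and 1.78 for Btg2, and 0.81 (SE 0.047, FDR 1.95e-13) and 1.31 (SE 0.052, FDR 3.76e-17) for Cdkn1a. The stress and DNA damage genes Gadd45b (0.62 and 0.93) and Gadd45a (0.29 and 0.32) rose as well. Foxm1, the forkhead activator of G2 genes, did not pass in either genotype (-0.066, FDR 0.335, and -0.011, FDR 0.915), and Mybl2 was at -0.0051 (FDR 0.976) in IPO13+/+ cells and higher, at 0.13 (FDR 0.00422), in IPO13-/- cells. In all, 8 of the 28 regulators were lower and 6 higher in IPO13+/+ cells, and 6 lower and 5 higher in IPO13-/- cells.

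The remaining cell cycle lists also gave calls in both directions. Whether the counts of these lists, of the regulators or of the other mitotic genes differ from the background shares above was not tested. Of 17 anaphase-promoting complex genes, 5 were lower and 2 higher in IPO13+/+ cells and 4 lower and 4 higher in IPO13-/- cells. Of 40 DNA replication and G1/S genes, 10 were lower and 1 higher in IPO13+/+ cells (median -0.050), and 11 lower and 9 higher in IPO13-/- cells (median 0.024). The largest called fall of this list in both genotypes was in a cyclin of G1: Ccnd2 had -0.43 and -0.60. Ccnd1 and Ccne1, cyclins of G1 and of the entry into S phase, were called in both as well, at -0.38 and -0.25 and at -0.31 and -0.36. Cdk6, a partner of the D-type cyclins, was called in IPO13+/+ cells (-0.39) but not in IPO13-/- cells (-0.19, FDR 0.0783), and the reverse held for the transcription factor E2f3 (-0.13, FDR 0.0682, and -0.33); neither difference between the genotypes passed the interaction test (FDR 0.41 and 0.159). No phase of the cell cycle was measured in these samples.

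**Figure D4:**
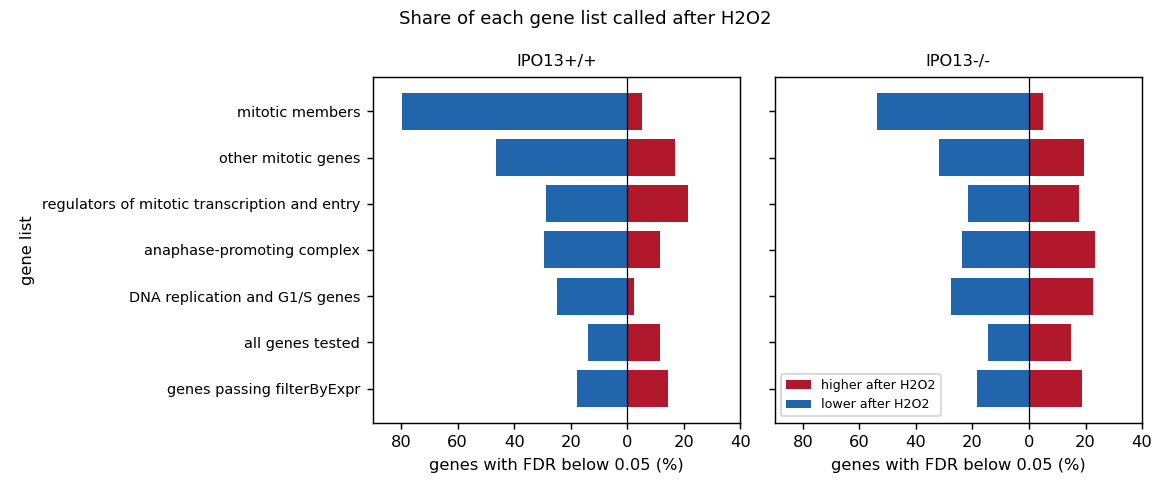
Share of genes with FDR below 0.05 (horizontal axis, percent, lower to the left in blue and higher to the right in red) after H2O2 in IPO13+/+ and IPO13-/- cells for the mitotic members, 4 other cell cycle lists (vertical axis), all 19424 genes tested and the 15191 that pass the expression filter. The left bar of the members reaches 79.5% in IPO13+/+ and 53.8% in IPO13-/- cells, beyond that of every other list drawn.

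Between the genotypes without stress, 13 of the 39 members were higher in IPO13-/- cells (background 18.7%, and 23.6% among genes passing the filter) and 8 were lower (background 19.4%, and 24.7%), with none at 2-fold (background 4.71%). The median was 0.032 with a range of -0.23 to 0.45, against 0 over all genes tested. These values rest on the same untreated libraries as the responses to H2O2 above. This split depended on scaling, since with library totals in place of TMM factors 19 members were higher and 1 lower, as 25.7% and 12.6% of all genes tested then were, the ratio of the factors between the groups being 0.081 on the log2 scale. With only the 4 libraries compared, 4 members were lower, as were 17.5% of all genes in that fit. The median of the members ran from 0.0281 to 0.0662 with 1 library left out. It was -0.097 over the 9 members in the longest of the 5 length classes and 0.039 over the other 30. All expressed genes of the longest class had a median of -0.0018. The part of transcript length in this split was not tested.

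Of the 13 higher members, 8 lie on 1 chromosome. Mouse chromosome 2 holds 8 of the 39, Aurka, Bub1, Bub1b, Cdc25b, Ckap5, Fam83d, Tpx2 and Ube2c, and all 8 were higher in untreated IPO13-/- cells, with log2 fold changes from 0.32 to 0.45 and a median of 0.36. The 31 members on other chromosomes had a median of -0.045, with 5 higher and 8 lower. Expressed genes on chromosome 2 other than the members were themselves higher, with a median of 0.27 over 1186 genes and 63.8% called, against -0.028 and 20.1% over 13806 genes on other chromosomes. Copy number of chromosome 2 was not measured here, and its part in the result was not tested.

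The largest 3 rises were all among these 8 genes. Cdc25b was at 26.1 and 27.4 CPM in IPO13+/+ and 34.8 and 38.2 CPM in IPO13-/- cells, a log2 difference of 0.45 (SE 0.053, FDR 1.19e-07). Fam83d was at 32.00 and 33.5 CPM in the former and 43.5 and 45.3 CPM in the latter, a log2 fold change of 0.44 (SE 0.048, FDR 3.28e-08). Ube2c was at 184 and 189.5 CPM in the IPO13+/+ and at 239.5 and 251 CPM in the IPO13-/- libraries, a log2 fold change of 0.39 (SE 0.040, FDR 7.37e-09). None of these overlapped between genotypes. Aurka behaved alike, at 161 and 157 CPM in IPO13+/+ and 202 and 209.6 CPM in IPO13-/- cells, with a log2 fold change of 0.37 (SE 0.040, FDR 2.1e-08).

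When the median change of the other expressed genes on the same chromosome was taken as an offset, a fit added after the data were seen and one that gives the offset no error of its own, 4 of the 8 remained higher in untreated cells: Cdc25b, Fam83d, Ube2c and Aurka, at 0.18, 0.17, 0.13 and 0.10 above their chromosome. In the same fit 9 members on other chromosomes were higher and 3 lower. Over all genes tested, this fit called 17.9% higher and 17.6% lower. Across the other mitotic list, all 6 genes on chromosome 2 were also higher in untreated IPO13-/- cells, with a median of 0.41, and 6 of the 35 elsewhere were.

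Off chromosome 2, the higher members were Cdc25c (0.33), Prc1 (0.18), Ttk (0.18), Plk1 (0.17) and Mki67 (0.17). Mki67 was near the threshold (SE 0.065, FDR 0.0428). Its groups overlapped, at 409.6 and 334 CPM in IPO13+/+ and 442 and 393 CPM in IPO13-/- cells. Plk1 was at 189.5 and 185 CPM in IPO13+/+ and 206 and 216 CPM in IPO13-/- cells, and its groups did not overlap (SE 0.040, FDR 0.00105). Ckap2 showed the largest difference downwards, from 116 and 112 to 97.4 and 97.7 CPM, a log2 fold change of -0.23 (SE 0.041, FDR 7.01e-05). Dlgap5 was at 127 and 127 CPM in the IPO13+/+ and at 113 and 113 CPM in the IPO13-/- libraries, a log2 fold change of -0.17 (SE 0.040, FDR 0.00116). Kif11 was at 275 and 259.9 CPM in the IPO13+/+ and at 242 and 239 CPM in the IPO13-/- libraries, and its log2 fold change of -0.16 (SE 0.041, FDR 0.00323) missed the threshold without either untreated IPO13-/- library (FDR 0.0686 and 0.0649). With library totals in place of TMM factors neither Dlgap5 (-0.091, FDR 0.0812) nor Kif11 (-0.075, FDR 0.162) was called, nor was Dlgap5 with the chromosome offset (-0.095, FDR 0.0703). All 3 were lower in both IPO13-/- libraries than in both IPO13+/+ libraries. Anln, Birc5, Nuf2, Kif23 and Kif2c were the other 5 that were lower, between -0.14 and -0.10.

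Ccnb1, Cdk1 and Cdc20 did not pass between untreated genotypes, with log2 fold changes of -0.064 (FDR 0.228), -0.053 (FDR 0.33) and 0.018 (FDR 0.786). Outside the members, Pttg1, which encodes securin, the inhibitor of separase, was at 38.9 and 38.6 CPM in IPO13+/+ and 17.8 and 17.8 CPM in IPO13-/- cells, a log2 difference of -1.12 (SE 0.053, FDR 1.89e-15), the largest in size of the 41 other mitotic genes. Cdkn1a was lower by a similar amount (-1.10, SE 0.052, FDR 1.34e-15).

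**Figure D5:**
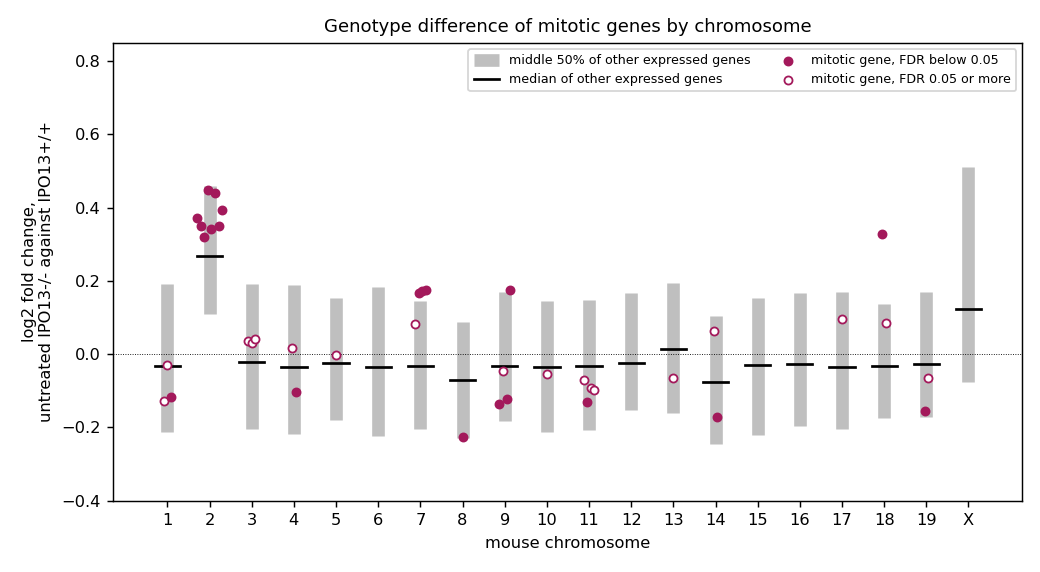
Log2 fold change of untreated IPO13-/- against IPO13+/+ cells (vertical axis) by mouse chromosome (horizontal axis). Circles are the mitotic genes, filled where the FDR is below 0.05. Grey bars span the middle 50% of the other expressed genes on each chromosome and black lines mark their median. All 8 circles on chromosome 2 lie above that chromosome's median of 0.27 and within the range of its grey bar, 0.11 to 0.46.

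After H2O2, more members were higher than lower in IPO13-/- cells. Of the 39, 16 were higher in IPO13-/- cells (background 19.1%, and 24.3% among genes passing the filter) and 4 lower (background 17.5%, and 22.2%). None changed 2-fold (background 4.56%), and the median was 0.076 with a range of -0.19 to 0.57. The 31 members off chromosome 2 had a median of 0.023, with 8 higher and 4 lower. Of other expressed genes off chromosome 2, 20.9% were called higher. The treated and untreated comparisons use different libraries of the same lines, and the 8 genes on chromosome 2 were all higher in both, with a median of 0.42 after H2O2, where other expressed genes of chromosome 2 had a median of 0.29 and 63.2% were called higher. With the chromosome offset 6 of the 8 remained higher, Bub1 and Tpx2 joining the 4 above, and 10 members elsewhere were higher and 2 lower, in a fit that called 17.4% of all genes tested higher and 17.1% lower.

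Cdc25b was at 25.5 and 25.6 CPM in treated IPO13+/+ and 37.1 and 38.8 CPM in treated IPO13-/- cells, a log2 difference of 0.57 (SE 0.054, FDR 1.89e-09). Ube2c was at 170.1 and 169.6 CPM in the first and 249.5 and 255 CPM in the second, a log2 fold change of 0.57 (SE 0.040, FDR 7.56e-12). Aurka was at 142 and 139 CPM in the IPO13+/+ and at 190.3 and 191 CPM in the IPO13-/- libraries, a log2 fold change of 0.44 (SE 0.040, FDR 9.14e-10). No library of one genotype reached the levels of the other in these genes. Ccnb1, which had not passed without stress, was at 429 and 430.2 CPM in treated IPO13+/+ and 479 and 477 CPM in treated IPO13-/- cells, a log2 difference of 0.15 (SE 0.040, FDR 0.00274). Plk1 remained higher, at 0.23 (SE 0.040, FDR 5.51e-05), and Cdk1 did not pass at -0.051 (FDR 0.368). Cdc20 was at the threshold, 0.10 (SE 0.040, FDR 0.0485), and lost its call by limma-voom (FDR 0.0517), by DESeq2 (FDR 0.144), with relative log expression factors (FDR 0.108), filterByExpr (FDR 0.0569) or a minimum of 10 counts (FDR 0.0533), and without any 1 of 5 libraries (either treated IPO13+/+, either untreated IPO13-/- or the first treated IPO13-/- library), with FDRs of 0.0708 to 0.404.

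The lower members after H2O2 were Ckap2, Cenpf, Dlgap5 and Top2a. Ckap2 was at 157 and 160.4 CPM in IPO13+/+ and 141 and 137 CPM in IPO13-/- cells, a log2 difference of -0.19 (SE 0.041, FDR 0.000403). Cenpf was at 198 and 209 CPM in the IPO13+/+ and at 184 and 175 CPM in the IPO13-/- libraries. Its log2 fold change was -0.18 (SE 0.056, FDR 0.0126), and it lost its call by limma-voom (FDR 0.0581). The call of Cenpf was also lost without the second treated library of either genotype (-0.139 and -0.141). The same held without either untreated IPO13-/- library (-0.18 in both fits). Dlgap5 was at 109 and 109 CPM in the IPO13+/+ and at 96.99 and 99.3 CPM in the IPO13-/- libraries, a log2 fold change of -0.15 (SE 0.041, FDR 0.00473), with an FDR of 0.0604 without the first treated IPO13-/- library and 0.0724 with the chromosome offset. In all 3 the IPO13-/- libraries were below the IPO13+/+ ones. With 1 library left out the log2 fold changes ran from -0.211 to -0.173 for Ckap2, -0.22 to -0.139 for Cenpf and -0.166 to -0.132 for Dlgap5. Ckap2 is thus the member that was lower in IPO13-/- cells with and without stress while rising after H2O2 in both genotypes.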

How the data were processed

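Total RNA from the 8 mESC samples was sequenced as poly(A) libraries, and the authors deposited, per library, raw counts per gene symbol together with CPM values (counts scaled to the library total) made from them. The submitters' processing notes name bcl2fastq, STAR 2.3.1, HTSeq, limma and the build mm10 without giving their roles in full, and the settings for multi-mapped reads and strand are not given in the sources used here. The deposited CPM matched the counts to within 0.0005 CPM and was not used further. The authors tested genes with Voom/Limma through Degust.

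Here the deposited counts were tested with edgeR 4.0.16 (R 4.3.3): TMM factors, the 19424 of 23420 genes with 1 or more reads somewhere in the 8 libraries, glmQLFit over all 8 libraries in 4 groups, glmQLFTest for each contrast, and Benjamini-Hochberg adjustment (FDR) over all genes tested, with calls at FDR below 0.05. The contrasts were H2O2 in each genotype, genotype without and with H2O2, and their interaction. With 2 libraries against 2 an exact permutation test cannot go below p = 0.333, so no single-gene permutation test is given. The common dispersion was 0.00113, a coefficient of variation of 3.36%. A count of 3, taken as the limit that a count of 0 allows, equals 0.0407 to 0.0497 CPM, far below any member, and covers counting error only. The 2 symbols that look like dates each stand on 2 rows, which were kept as 4 separate rows. Chromosomes and exon lengths come from GENCODE M21 (GRCm38), reached through the gene symbol or a RefSeq synonym (19126 of the 19424 genes tested), and promoters from RefSeq.

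Values in every library are given for Ccnb1, Plk1, Cdc20, Cdk1 and Aurka and, in each contrast, for up to 3 called members with the largest rise and up to 3 with the largest fall. In the other lists up to 4 called genes with the largest change are named, and Cdkn1a, Foxm1, Mybl2 and Ipo13 in any case. The members, lists and tests were chosen with earlier results of these data known. Alternatives were limma-voom 3.58.1, DESeq2 1.42.0, other scaling factors, other count filters, fewer libraries, the replicate number as a block and a chromosome offset. Deviations of libraries with the same replicate number were compared over 6 pairs of groups (8620 genes). Among untreated IPO13+/+, untreated IPO13-/- and treated IPO13-/- libraries they were positively correlated, at 0.37, 0.64 and 0.35. Between each of these groups and treated IPO13+/+ libraries the correlations were -0.024, -0.09 and -0.00055. Because treated IPO13+/+ libraries did not share the deviation, the numbers were not taken as pairs in the main fit. Markers of other cell types were summed over fixed lists: primitive endoderm genes came to 21.5 to 24.1 CPM before and 16.9 to 18.0 CPM after H2O2 in IPO13+/+ cells and to 19.3 to 19.7 and 15.9 to 18.4 CPM in IPO13-/- cells, and neural genes to 136.7 to 149.8 CPM in IPO13+/+ and 157.8 to 165.7 CPM in IPO13-/- cells. No marker of any list was at 0 in all libraries, and the part of these shifts in the results was not tested.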

Additional observations from a re-analysis of the deposited data

Results flagged for a closer look

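By the test of the interaction of genotype and H2O2, 1 of the 39 mitotic genes passed, close to the 2.01% of all genes called in that direction, and so did 2 of the 28 regulators. For Ccnb1 the interaction was 0.219 log2 units (SE 0.056, FDR 0.0305), with a lower level after H2O2 in IPO13+/+ cells and overlapping levels in IPO13-/- cells. It did not pass by limma-voom (FDR 0.0749), DESeq2 (0.0678), with library totals (0.165), filterByExpr (0.0953) or a minimum of 10 counts (0.0618), or without either treated IPO13+/+ or any IPO13-/- library. For Cdkn1a it was 0.495 (SE 0.070, FDR 7.13e-05), the rise being larger in IPO13-/- cells, which started from a lower level. For Btg2 it was 0.245 (SE 0.066, FDR 0.0404), again with the larger rise in IPO13-/- cells. These 2 regulators were not refitted under the alternatives.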

How the results depend on the processing

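The 2 rises after H2O2, Ckap2 and Fam83d, were called under every alternative run in both genotypes. With the replicate number as a block, 33 members were lower after H2O2 in IPO13+/+ cells (17% of all genes) and 24 in IPO13-/- cells (16.8%). Between genotypes 15 were higher and 11 lower untreated (20.2% and 21.4% of all genes). Treated, 17 were higher and 6 lower (20.6% and 19.4%). The interaction called 3 higher (4.56% of all genes, against 2.01% without the block). Over all genes it called 2.09% lower, against 0.705% without the block. The block moved only the interaction count by over 1.5 times.

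Other counts moved as follows. Members lower after H2O2 in IPO13+/+ cells were 20 with only the 4 libraries compared and 20 to 29 with 1 library left out (20 without the first treated one). Members lower in untreated IPO13-/- cells were 1 with library totals, 4 with only the 4 libraries compared, 3 with the chromosome offset and 2 to 7 with 1 library left out. Members lower in treated IPO13-/- cells were 2 with the offset (17.1% of all genes). That count and the interaction count also moved as single libraries were left out. The interaction called 0 members by limma-voom, DESeq2, library totals, filterByExpr or a minimum of 10 counts. In these fits 1.08% to 1.69% of all genes were called higher. Fits without a library leave 1 in its group, which is assumed to vary like the others.

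Medians moved by more than the small spread between libraries. In IPO13+/+ cells after H2O2 the median was -0.170 with DESeq2 or its factors, -0.141 with library totals, -0.152 with filterByExpr, -0.154 with 4 libraries and -0.183 to -0.156 with 1 left out. In IPO13-/- cells it was -0.158 with library totals, -0.114 with filterByExpr and -0.150 to -0.0856 with 1 left out. Untreated between genotypes it was 0.113 with library totals, 0.0474 with filterByExpr, 0.0458 with 4 libraries, 0.0537 with the offset and 0.0281 to 0.0662 with 1 left out. Treated, it was 0.0609 with DESeq2 or its factors, 0.0852 with library totals, 0.0906 with the offset and 0.0645 to 0.0898 with 1 left out. The interaction median was 0.0390 with DESeq2, 0.0391 with its factors, 0.0338 with filterByExpr, 0.0224 to 0.0665 with 1 left out, and turned to -0.0205 with library totals. Library totals shift the fold changes by 0.039, -0.032, 0.081 and 0.0091 in the 4 contrasts, in the order above; for other changes the cause was not tested.

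Single genes turned direction in 17 fits, none of them called. With library totals these were Ccnb1 after H2O2 in IPO13-/- cells (-0.0123), Ccnb1 (0.0166) and Cdk1 (0.0274) between untreated genotypes, and the interactions of Plk1 (-0.0178) and Cdk1 (-0.0689). The interaction of Cdk1 was also -0.00937 with DESeq2, -0.00941 with its factors, -0.0146 with filterByExpr and -0.0403 to 0.0204 with 1 library left out. With 1 left out, Ccnb1 ran from -0.0221 to 0.0880 and Cdc20 from -0.0658 to 0.00737 after H2O2 in IPO13-/- cells, and between untreated genotypes Ccnb1 from -0.107 to 0.00297 and Cdc20 from -0.00619 to 0.0669. Calls were lost in 53 other fits. Counting error is small for these genes, each with at least 1292 reads per library. Precision therefore rests on the spread between the 2 libraries of a group, which the fit pools over the 4 groups. That spread was unequal. The mean chi-square per gene between the 2 libraries was 15 in untreated and 2.26 in treated IPO13+/+ cells. In IPO13-/- cells it was 4.58 untreated and 6.59 treated.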
